A study of Mus musculus with 19 samples.

Results

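The collagen genes of mouse skin are described here across healthy skin, skin with early basal cell carcinoma (BCC) and BCC skin after each of 2 treatments. Members were the genes whose symbol is Col, a number, a and a number, with at least 10 counts over all libraries. This gave 44 of the 18521 genes in the count table, and 43 of them passed the low-count filter. Col9a1, with 50 counts in all libraries together, was the gene left out. By the structures their proteins form, 8 members were set apart as fibrillar collagens of skin, 7 as cartilage collagens, 10 as collagens of basement membranes and the dermal-epidermal junction, 6 as type VI, 6 as fibril-associated and 7 as others.

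RNA came from 1 cm2 skin samples of 16 female mice, and all carried Ptch1+/- K14-CreER2 p53fl/fl. By this genotype the mice are born with 1 intact allele of Ptch1, which encodes the Hedgehog receptor that restrains the pathway. Whether tumour cells kept that allele was not measured here. Tamoxifen deletes p53 in cells that express keratin 14, so stromal cells keep p53. The 5 healthy mice were not induced and were 128 to 137 days old. The other 11 mice received 3 tamoxifen injections of 300 µg and an x-ray dose of 4 Gy. Of these, 4 had untreated BCC skin (278 to 320 days old), 3 had ablative fractional laser (AFL; 228 to 326 days old) and 4 had vismodegib, a blocker of the Hedgehog transducer Smoothened (268 to 326 days old). AFL was given as 1 treatment with 40 mJ per microbeam at 5% density, and vismodegib as 8 topical treatments, with harvest on day 4. Age and induction cannot be told apart between healthy and induced mice. No vehicle or sham group was analysed here.

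Collagens are proteins in which 3 chains wind into a triple helix, and they make up most of the dermis. Fibrillar types I, III and V build the dermal fibres, type IV builds basement membranes, type VII anchors the epidermis to the dermis and type VI forms beaded filaments around cells. Fibroblasts are the main source of fibrillar collagen in skin, and wounding is known to switch collagen synthesis and remodelling on. Types II, IX, X and XI are best known from cartilage.

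Library totals lay between 27185921 and 33556611 counts. Read counts relative to library size (CPM, the usual count scale) were adjusted by the trimmed mean of M-values (TMM), and "rose", "fell" and "called" refer to an adjusted p under 0.05 in edgeR's quasi-likelihood test over 15760 genes. Values of single mice are given in the order of mouse number, which is 10, 13, 14, 15 and 16 for healthy, 3, 4, 5 and 8 for BCC, 2, 7 and 11 for AFL, and 1, 6, 9 and 12 for vismodegib. Mouse 4 stood apart among BCC mice by high fibrillar and type VI collagen, and mouse 9 among vismodegib mice by a summed CPM of 49350 over 5 neutrophil markers, against 2419 to 5404 in the other mice of its group. Nearly all of the 49350 CPM came from S100a8 and S100a9, with group maxima of 23270 and 25900 CPM. The maxima of Csf3r, Cxcr2 and Retnlg in this group were 136.5, 78.2 and 31.5 CPM. By a summed CPM over 19 hair shaft and sheath genes, BCC mouse 3 (18350, against 150 to 360) and vismodegib mouse 6 (23390, against 122 to 211) also stood apart. Both lay within the healthy range of 1912 to 45950. The other BCC and vismodegib mice and all AFL mice (64.9 to 699) lay below that range, so hair state also differed between groups. Without BCC mouse 3 there were 12 collagen calls in place of 10 against healthy skin and 26 in place of 29 in vismodegib against BCC skin, and without vismodegib mouse 6 there were 28 in the latter. Many results that change without mouse 4 or 9 are marked below, some of them with the value without it. In these bulk samples, fewer cells of a type and less RNA per cell cannot be told apart.

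Collagen genes held 0.485% to 1.46% of all counts in healthy mice and 1.07% to 3.17% in BCC mice, and these ranges overlapped. After AFL the share was 2.78%, 2.85% and 2.60%, and after vismodegib it was 0.373%, 0.582%, 0.327% and 0.749%. These shares are of unscaled counts, while CPM values carry the TMM scaling. The TMM factor was 0.591 in vismodegib mouse 9 and 0.906 to 1.18 in the other mice. CPM values of mouse 9 are therefore scaled up against its shares. All AFL mice stood above all healthy mice, and all vismodegib mice stood below all BCC mice. The 8 fibrillar genes made up most of the share in AFL skin, with 2.10% ± 0.0572 of all counts (SD, n = 3), against 0.286% ± 0.127 after vismodegib (SD, n = 4). The 7 cartilage genes held no more than 0.0196% in any mouse. The spread between 2 libraries of a single mouse was not small, since mouse 11 of the AFL group gave 2.10% and 3.10%.

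**Figure D1:**
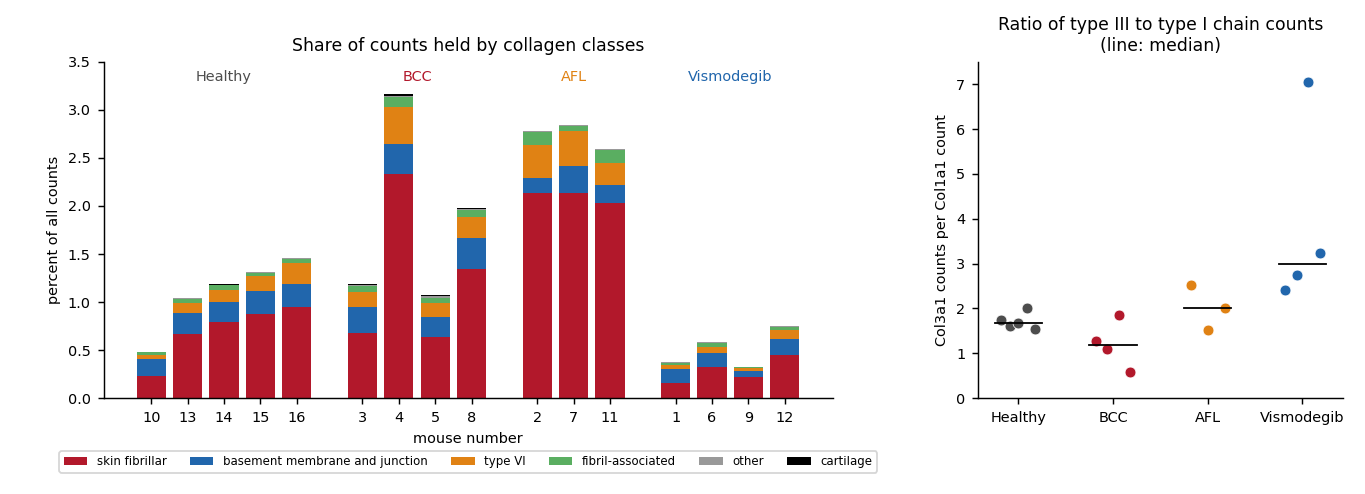
The left panel shows, for each of 16 mice, the percent of all counts held by each collagen class as stacked bars, and the right panel the number of Col3a1 counts per Col1a1 count in each mouse, with a line at the group median. Total shares lie between 2.60% and 2.85% in the 3 AFL mice and between 0.327% and 0.749% in the 4 vismodegib mice, and the Col3a1 to Col1a1 ratio is at least 2.42 in every vismodegib mouse.

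Per kilobase of coding length, the 3 most abundant members of healthy skin were Col3a1 with 618 ± 260 CPM per kilobase, Col1a2 with 473 ± 182 and Col1a1 with 366 ± 156 (SD, n = 5). These encode the single chain of type III and both chains of type I collagen, and their ranges over mice overlapped. Col17a1, a transmembrane collagen of basal keratinocytes, came next with 172 ± 53.4 CPM per kilobase. It was followed by Col6a1 with 152 ± 77.3 and Col6a2 with 133 ± 76.0, and the basement membrane chain Col4a1 had 99.4 ± 26.8. After vismodegib Col17a1 ranked 3 and Col1a1 ranked 4, with 155 ± 48.4 and 112 ± 49.6 CPM per kilobase (SD, n = 4), and these 2 levels overlapped. Col10a1 was the lowest member in healthy skin, at 0.0141 ± 0.0142 CPM per kilobase.

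Promoter sequences are shown for 6 members that carry the comparisons below. They are Col3a1 and the minor fibrillar genes Col27a1 and Col24a1, the anchoring fibril gene Col7a1, the cartilage gene Col10a1 and Col8a1, a short-chain collagen. Each run is the 250 bases before the RefSeq gene start (GRCm38.p6), 5′ to 3′ on the gene's strand, and none of the 6 windows overlaps an annotated exon. Capitals mark matches, on either strand, to any of 5 promoter motifs whose letters follow, none of which contains another.
Col3a1: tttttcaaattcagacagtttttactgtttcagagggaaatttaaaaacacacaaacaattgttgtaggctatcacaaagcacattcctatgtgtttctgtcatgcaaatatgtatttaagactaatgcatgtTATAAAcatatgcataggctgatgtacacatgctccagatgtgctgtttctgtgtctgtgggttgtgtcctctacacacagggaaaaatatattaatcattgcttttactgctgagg
Col27a1: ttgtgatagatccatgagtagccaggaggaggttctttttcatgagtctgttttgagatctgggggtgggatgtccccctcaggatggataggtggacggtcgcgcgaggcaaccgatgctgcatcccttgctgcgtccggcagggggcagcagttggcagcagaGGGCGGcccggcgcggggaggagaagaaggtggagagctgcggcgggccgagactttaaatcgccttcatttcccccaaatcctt
Col24a1: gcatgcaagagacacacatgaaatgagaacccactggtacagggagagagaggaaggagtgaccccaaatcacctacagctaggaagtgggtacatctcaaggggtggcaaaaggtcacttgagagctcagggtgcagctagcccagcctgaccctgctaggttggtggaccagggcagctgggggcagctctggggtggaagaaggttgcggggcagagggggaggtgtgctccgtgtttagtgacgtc
Col7a1: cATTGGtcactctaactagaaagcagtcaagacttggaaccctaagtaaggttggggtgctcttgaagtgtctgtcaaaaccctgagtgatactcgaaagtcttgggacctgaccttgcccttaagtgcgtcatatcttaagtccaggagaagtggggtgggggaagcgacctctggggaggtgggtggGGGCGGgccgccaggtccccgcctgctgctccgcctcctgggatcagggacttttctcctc
Col10a1: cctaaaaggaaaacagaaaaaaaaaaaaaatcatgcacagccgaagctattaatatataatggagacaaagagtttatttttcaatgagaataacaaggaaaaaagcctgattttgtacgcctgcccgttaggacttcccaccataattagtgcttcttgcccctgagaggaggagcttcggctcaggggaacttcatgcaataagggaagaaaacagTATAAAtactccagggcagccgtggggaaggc
Col8a1: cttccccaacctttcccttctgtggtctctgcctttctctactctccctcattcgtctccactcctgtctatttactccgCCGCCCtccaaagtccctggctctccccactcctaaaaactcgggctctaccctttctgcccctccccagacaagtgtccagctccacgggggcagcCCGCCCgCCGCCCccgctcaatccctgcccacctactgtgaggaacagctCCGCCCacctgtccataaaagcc
The windows lie on chromosome 1 (45311288 to 45311537, plus strand) for Col3a1, chromosome 4 (63215162 to 63215411, plus) for Col27a1 and chromosome 3 (145292222 to 145292471, plus) for Col24a1. Those of Col7a1, Col10a1 and Col8a1 lie on chromosome 9 (108953336 to 108953585, plus), chromosome 10 (34389731 to 34389980, plus) and chromosome 16 (57754738 to 57754987, minus). RefSeq promoter entries matched 35 of the 44 members, with 38 entries. A gene was counted when any of its entries matched, while the share over all promoters is per entry. A GC box, spelled GGGCGG, was found in 21 of these 35 genes (60%), against 32.7% of all 32851 promoters of the same length. The letters CCAAT were found in 13 genes (37.1%, against 33.8%). The TATA box letters TATAAA were found in 5 (14.3%, against 12.4%), namely Col3a1, Col10a1, Col11a2, Col13a1 and Col17a1. They began 32 bases before the start in Col10a1, 117 in Col3a1, 143 in Col11a2, 237 in Col13a1, and 140 and 91 in Col17a1. The AP-1 letters TGANTCA were found in Col6a1 alone (2.86%, against 6.75%). The site of the Hedgehog effectors of the GLI family, spelled TGGGTGGTC, was found in no member, against 0.225% of all promoters. A match is a description of the letters, and no factor binding was measured.

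In BCC against healthy skin, the comparison that asks what tumour induction changed, 10 of 43 collagen genes rose and none fell. Over all genes 2.82% were called, 2.66% higher and 0.159% lower. The median log2 fold change was 0.88 over the collagen genes and 0.00 over all genes. Of the 10 genes, 4 were cartilage collagens, 2 were minor fibrillar collagens, and the others were Col7a1, Col14a1, Col25a1 and Col26a1. The main dermal chains Col1a1, Col1a2 and Col3a1, the 6 type IV genes and the 6 type VI genes were not called.

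The 3 largest fold changes were those of the cartilage genes Col10a1, Col2a1 and Col9a2. Col2a1, the chain of the main cartilage fibril, had 0.946, 0.816, 0.524, 0.782 and 0.376 CPM in healthy mice and 30.8, 17.1, 20.8 and 26.2 CPM in BCC mice. The groups did not overlap, as for 12 of 43 collagen genes and 6.65% of all genes, and every BCC mouse was more than 10 CPM above every healthy mouse (log2 fold change 5.11, SE 0.54, adjusted p = 0.000136). Col9a2, a chain of type IX collagen, which sits on the surface of type II fibrils, had 0.296, 0.379, 0.386, 0.782 and 0.246 CPM in healthy mice and 15.5, 12.8, 11.5 and 5.99 CPM in BCC mice (4.78, SE 0.47, adjusted p = 9.36e-05). Its partner Col9a3 had 2.92 to 8.02 CPM in healthy and 19.9 to 29.0 CPM in BCC mice (2.30, SE 0.33, adjusted p = 0.000923). Both type IX genes were thus separated without overlap. Col10a1, known from hypertrophic cartilage, had 5 counts over all healthy mice and 163 over all BCC mice, or 0.0288 ± 0.0291 CPM (n = 5) and 1.2 ± 0.709 CPM (SD, n = 4), with a log2 fold change of 5.38 (SE 0.90, adjusted p = 0.00236). Col11a1 (1.75, SE 0.79, adjusted p = 0.327) and Col11a2 (0.42, SE 0.38, adjusted p = 0.662) did not pass. The third type IX gene, Col9a1, had 12 counts over all healthy mice and 29 over all BCC mice and was not tested.

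Markers of cartilage and bone cells had mostly higher estimates in BCC than in healthy skin, and 1 of them was called. Of 8 chondrocyte markers 4 passed the low-count filter and none was called, with a median log2 fold change of 0.73. Sox9, which skin follicles also express, was the most abundant of the list, at 158 ± 11.7 CPM in BCC (n = 4) and 98.9 ± 30.0 in healthy skin (SD, n = 5), without overlap (0.68, SE 0.31, adjusted p = 0.329). Acan was at 14.0 ± 9.32 and 8.13 ± 5.31 CPM, and Hapln1 at 0.789 ± 0.539 and 0.242 ± 0.101 CPM. Comp, the other tested marker of the list, had a lower estimate in BCC (-0.85), at 1.68 ± 0.532 and 3.02 ± 1.52 CPM. The summed CPM of the list was 157 to 183 in BCC and 79.0 to 148 in healthy mice, so these sums did not overlap. Sox9 made up most of this sum in every group. Matn1 had 1 count over all BCC mice and 4 over all healthy mice, and Matn3 had 4 and 1. Cnmd, also below the filter, had 19 and 37 counts. Of 5 osteoblast markers 4 were tested, with a median of 1.73, and Ibsp rose, from 3 counts over all healthy mice to 121 over all BCC mice. Sp7 was at 7.00 ± 5.37 CPM in BCC and 1.70 ± 1.15 CPM in healthy skin (2.03, SE 0.68, adjusted p = 0.151), and Bglap had 1 count over all BCC mice. The osteoblast sum was 3.53 to 16.5 CPM in BCC and 1.01 to 3.83 CPM in healthy mice. The part of such cells in the cartilage collagen values was not tested beyond these levels.

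**Figure D2:**
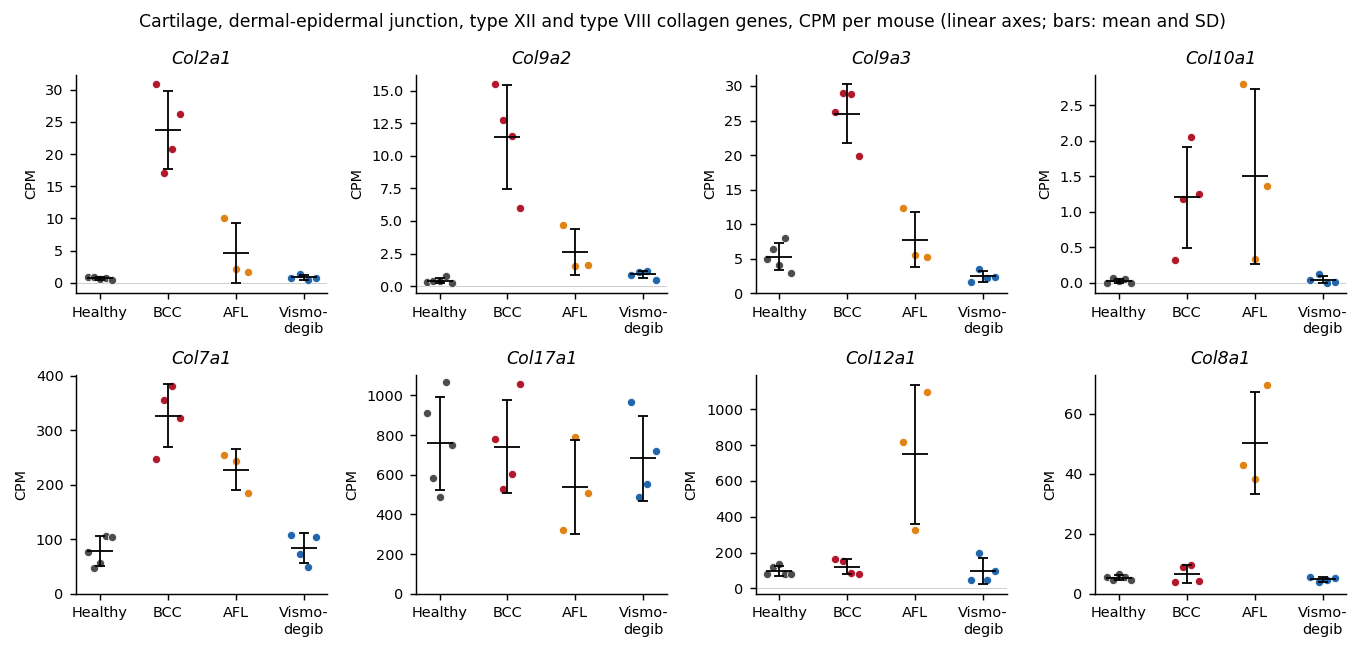
Each panel plots CPM (linear axis) of a collagen gene in every mouse of the 4 groups, with the mean and SD as a bar. Col2a1, Col9a2 and Col9a3 are high in all 4 BCC mice, Col7a1 is higher in BCC and AFL than in healthy skin, and Col12a1 and Col8a1 are highest in the 3 AFL mice, while Col17a1 overlaps between all groups.

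Among fibrillar collagens, the minor types XXVII and XXIV rose in BCC skin. Col27a1 had 5.80, 6.56, 10.2, 8.31 and 17.8 CPM in healthy mice and 31.7, 68.3, 48.0 and 85.0 CPM in BCC mice, without overlap (2.58, SE 0.40, adjusted p = 0.00138). Col24a1 was at 1.47 ± 0.517 CPM in healthy (n = 5) and 6.82 ± 4.34 CPM in BCC skin (SD, n = 4), with overlap, and rose by 2.21 (SE 0.47, adjusted p = 0.0139). Without BCC mouse 4 the log2 fold change of Col24a1 was 1.75 and did not pass (adjusted p = 0.0794). Col1a1 had 481, 1610, 1746, 1799 and 2337 CPM in healthy mice and 1861, 6145, 1111 and 4520 CPM in BCC mice. The BCC mice thus spanned a wider range that contained most healthy mice, and the difference did not pass (1.10, SE 0.49, adjusted p = 0.319). Col3a1 had 836, 2598, 2910, 3622 and 3608 CPM in healthy mice and 2374, 6729, 2065 and 2623 CPM in BCC mice (0.34, SE 0.45, adjusted p = 0.778). Col5a3, a minor type V chain, was the 1 fibrillar gene with a lower estimate in BCC (-0.79, SE 0.36, adjusted p = 0.331).

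**Figure D3:**
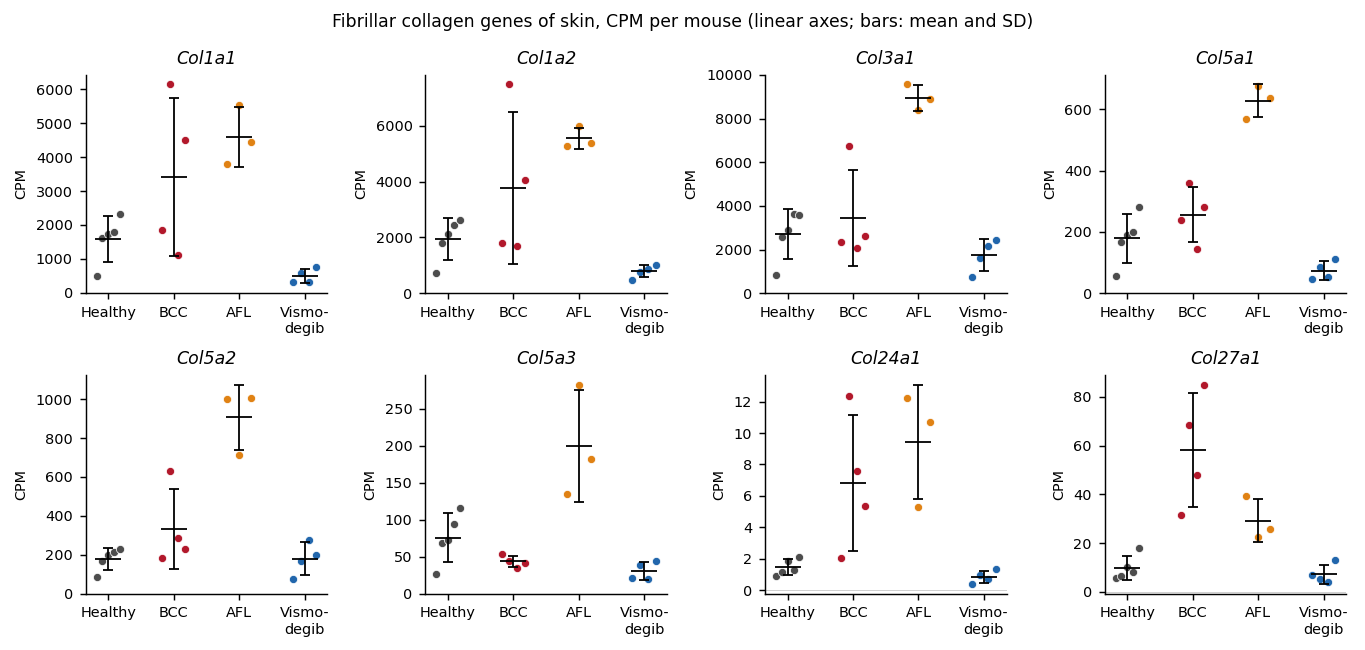
Each panel plots CPM (linear axis) of a fibrillar collagen gene in every mouse of the 4 groups, with the mean and SD as a bar. The 3 AFL mice lie above the 4 vismodegib mice in all 8 panels, and BCC mouse 4 is the highest of its group for Col1a1, Col1a2, Col3a1, Col5a1, Col5a2 and Col24a1.

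At the dermal-epidermal junction, Col7a1, the chain of the anchoring fibrils, had 76.4, 47.5, 56.4, 106 and 105 CPM in healthy mice and 248, 356, 381 and 322 CPM in BCC mice. The lowest BCC mouse was more than 2 times the highest healthy mouse, and Col7a1 rose 4.18-fold (2.06, SE 0.28, adjusted p = 0.0006). Col17a1, the hemidesmosome collagen, overlapped fully between the groups, at 759 ± 235 CPM in healthy (n = 5) and 743 ± 237 CPM in BCC skin (SD, n = 4; -0.03, SE 0.32, adjusted p = 0.976). The list of 6 basal keratinocyte markers had no called gene in this comparison and a median log2 fold change of 0.36. The 95% interval of the Col17a1 log2 difference ran from -0.73 to 0.67, and that of Col7a1 from 1.45 to 2.67.

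The other 3 genes that rose were Col26a1 and Col25a1, of which Col25a1 is a transmembrane collagen, and Col14a1, which lies on the surface of dermal fibrils. Col26a1 had 0.444, 0.642, 0.662, 0.318 and 1.30 CPM in healthy mice and 3.82, 9.58, 6.87 and 5.15 CPM in BCC mice (3.21, SE 0.47, adjusted p = 0.00104). Col25a1 ranged from 0.463 to 1.21 CPM and from 2.40 to 7.11 CPM (2.67, SE 0.50, adjusted p = 0.00564). Neither gene overlapped between the groups. Col14a1 ranged from 36.7 to 128 CPM and from 161 to 585 CPM (1.70, SE 0.42, adjusted p = 0.0371), and it lost its call in 8 of 18 other settings, among them without BCC mouse 4, where the log2 fold change was 1.18. All 10 genes but Col14a1 and Col24a1 were called in each of the 18 other settings.

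In vismodegib against BCC skin, 29 of 43 collagen genes fell and none rose, while 17% of all genes were called, 8.03% higher and 9% lower. The median log2 fold change of the collagen genes was -1.75, and that of all genes was 0.05. Both type I chains, Col5a1, Col24a1 and Col27a1, all 6 type IV chains, Col7a1, 4 of 6 type VI chains and 5 of 6 tested cartilage genes fell in this comparison. Type III, the type V chains Col5a2 and Col5a3, Col17a1 and Col18a1 were not called. Without BCC mouse 4 there were 20 calls, without vismodegib mouse 9 there were 21, and 15 of the 29 genes were called in every setting tried.

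Col1a1 had 317, 583, 307 and 752 CPM after vismodegib, against 1861, 6145, 1111 and 4520 CPM in BCC. The highest vismodegib mouse was below the lowest BCC mouse, a separation seen for 26 of 43 collagen genes and 16.4% of all genes, and Col1a1 fell by 2.80 on the log2 scale (SE 0.55, adjusted p = 0.00368), or by 2.35 without BCC mouse 4 and 2.60 without vismodegib mouse 9. Col1a2, the partner chain in type I collagen, had 494, 774, 874 and 1014 CPM after vismodegib and 1787, 7482, 1700 and 4075 CPM in BCC (-2.25, SE 0.48, adjusted p = 0.00597). Both type I genes were called in every setting tried. Col3a1 had 768, 1604, 2168 and 2429 CPM after vismodegib, a range that overlapped the 2065 to 6729 CPM of BCC, and did not pass (-0.98, SE 0.48, adjusted p = 0.164). Its log2 difference was -0.44 without BCC mouse 4 (adjusted p = 0.554).

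The balance of type III to type I RNA is given as a description, with no test. Col3a1 counts per Col1a1 count were 2.42, 2.75, 7.06 and 3.23 after vismodegib, 1.28, 1.10, 1.86 and 0.580 in BCC, and 1.74, 1.61, 1.67, 2.01 and 1.54 in healthy skin. AFL mice had 2.52, 1.52 and 2.01. Every vismodegib mouse was above every healthy and every BCC mouse, also with mouse 9 left out, but AFL mouse 2 was above vismodegib mouse 1, so these 2 groups overlapped. Col5a2, whose chain is found in type V fibrils of skin, showed a similar picture, with 0.154 to 0.317 counts per Col1a2 count after vismodegib and 0.0870 to 0.115 in healthy skin. BCC mice ranged from 0.0560 to 0.169 for this ratio and so overlapped the vismodegib mice. AFL mice had 0.190, 0.119 and 0.188, all above every healthy mouse and overlapping the vismodegib mice.

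Among fibrillar genes, Col27a1 and Col24a1 had the lowest log2 fold changes. Col27a1 had 6.69, 5.24, 4.09 and 12.9 CPM after vismodegib, against 31.7 to 85.0 CPM in BCC (-3.0, SE 0.44, adjusted p = 0.000656). Col24a1 had 0.410, 0.944, 0.690 and 1.34 CPM, against 2.03 to 12.4 CPM (-2.99, SE 0.53, adjusted p = 0.0019). Col5a1, a type V chain, had 46.2, 86.1, 52.1 and 112 CPM, against 144 to 358 CPM (-1.79, SE 0.41, adjusted p = 0.00853). None of the 3 overlapped BCC, and all 3 were called in every setting tried.

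Of the 6 tested cartilage genes 5 fell after vismodegib. Col2a1 was at 0.786, 1.40, 0.425 and 0.692 CPM (-4.83, SE 0.59, adjusted p = 0.000207), and Col9a3 was at 1.71, 3.53, 2.23 and 2.36 CPM (-3.40, SE 0.38, adjusted p = 0.000128). Col2a1 was thus near its healthy level, and Col9a3 was lower than in healthy skin (-1.10, SE 0.34, adjusted p = 0.0448). Col10a1 had 6 counts over all vismodegib mice (-4.69, SE 0.94, adjusted p = 0.00411). Col11a1 fell by 3.42 (SE 0.91, adjusted p = 0.0199) but lost its call without BCC mouse 4 or vismodegib mouse 9. In the same comparison 1 of 4 tested chondrocyte markers fell, Sox9, to 67.5 ± 36.1 CPM (SD, n = 4; -1.23, SE 0.33, adjusted p = 0.0203), and the median over that list was -1.47. Of 4 tested osteoblast markers 3 fell, Ibsp, Sp7 and Phex, with a list median of -2.93. The other, Dmp1, had a higher estimate (1.45) and was not called, at 0.751 ± 0.508 CPM after vismodegib and 0.270 ± 0.0283 CPM in BCC (SD, n = 4 each). The summed CPM of the chondrocyte list was 40.5 to 121 after vismodegib and 157 to 183 in BCC, and that of the osteoblast list 1.31 to 1.75 and 3.53 to 16.5. The part of such cells in these collagen values was not tested.

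Of the 10 basement membrane and junction genes 8 fell. Col7a1 had 107, 72.5, 49.4 and 104 CPM after vismodegib, which is the range of healthy skin, against 248 to 381 CPM in BCC (-1.97, SE 0.30, adjusted p = 0.00083). Col17a1 had 968, 490, 554 and 722 CPM and differed from BCC by -0.12 (SE 0.34, adjusted p = 0.842). The 95% interval of the Col17a1 log2 difference was -0.86 to 0.62. Among 6 basal keratinocyte markers Krt14 rose in the same comparison, and the list median was 0.32, with estimates from -0.90 to 2.1. The summed CPM of the list was 22410 to 43790 after vismodegib and 8350 to 17310 in BCC, mostly from Krt14 and Krt5. Krt15 was at 695 ± 110 CPM after vismodegib and 1295 ± 545 CPM in BCC (SD, n = 4 each). Itgb4 also had a lower mean after vismodegib, while Krt5, Itga6 and Trp63 had higher means. The 6 type IV genes, which build the network of basement membranes, fell by 1.09 to 1.82, with Col4a1 at -1.12 (SE 0.35, adjusted p = 0.0373) and Col4a6 at -1.82 (SE 0.39, adjusted p = 0.00574). Col4a1, Col4a2 and Col4a4 lost their calls without BCC mouse 4. Col4a1 had 230, 402, 222 and 428 CPM after vismodegib, and the highest of these exceeded BCC mouse 5, at 359 CPM.

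Of the 6 type VI genes 4 fell after vismodegib. Col6a3 had 181, 202, 223 and 372 CPM after vismodegib and 478, 1143, 458 and 560 CPM in BCC (-1.43, SE 0.43, adjusted p = 0.0324), but its call was lost without BCC mouse 4 (-1.03, adjusted p = 0.111) and without vismodegib mouse 9 (-1.37, adjusted p = 0.0724). Col6a1 fell by 1.75 (SE 0.44, adjusted p = 0.014), and Col6a6, a low-abundance chain, by 3.10 (SE 0.66, adjusted p = 0.006). Among fibril-associated genes Col14a1 had 27.3, 56.7, 59.6 and 74.4 CPM after vismodegib and 161 to 585 CPM in BCC, and fell by 2.48 (SE 0.46, adjusted p = 0.0026). Col12a1 did not pass (-0.32, SE 0.46, adjusted p = 0.673). Col26a1 fell by 4.40 (SE 0.56, adjusted p = 0.000278), to 0.103, 0.396, 0.319 and 0.362 CPM.

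Estimates of the fibroblast markers were mixed, from -1.41 to 0.67, and their part in the collagen values was not tested. Of 10 fibroblast markers 1, Twist2, fell in vismodegib against BCC skin (-1.41, SE 0.32, adjusted p = 0.00884), and the median over the list was -0.03. Pdgfra, the fibroblast receptor, was at 115 ± 29.8 CPM after vismodegib and 116 ± 39.2 CPM in BCC (SD, n = 4 each; -0.01, SE 0.34, adjusted p = 0.983). Pdgfrb, Dpt, Fbln1 and Clec3b had lower means after vismodegib. Lum, Dcn, Pi16 and Dpp4 had higher means, though the medians of Lum and Dcn were lower. The summed CPM of the 10 markers was 2029, 1185, 7052 and 2645 after vismodegib and 1026, 2868, 2729 and 2663 in BCC. Most of the 7052 CPM of mouse 9 came from Dcn, at 4868 CPM. Lum, Dcn and Dpt stand both on this list and on that of collagen-binding proteins.

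**Figure D4:**
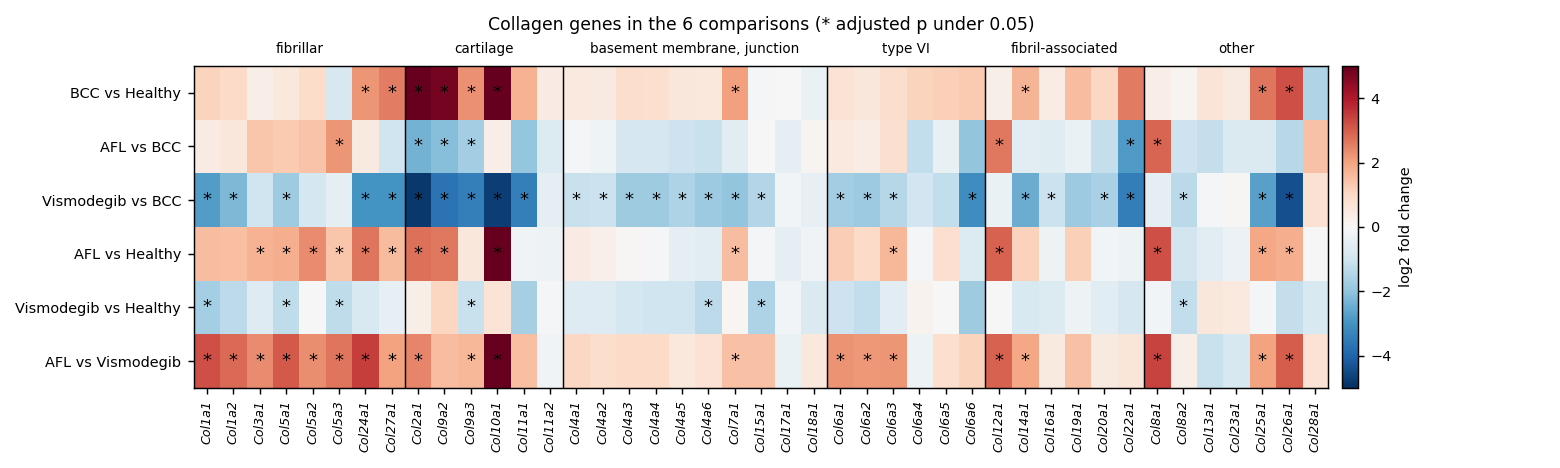
Rows are the 6 comparisons and columns the 43 tested collagen genes by class. Colour gives the log2 fold change, clipped at 5 in each direction, and a star an adjusted p under 0.05, so that the 29 stars for vismodegib against BCC, all on the lower side, and the 8 stars for fibrillar genes in AFL against vismodegib can be seen.

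In AFL against BCC skin, 3 collagen genes rose and 4 fell, while 7.75% of all genes were called, 6.1% higher and 1.65% lower. The median log2 fold change of the collagen genes was -0.52, and that of all genes was -0.04. The 3 genes that rose were Col12a1, Col8a1 and Col5a3, and those that fell were Col2a1, Col9a2, Col9a3 and Col22a1. Fibrillar genes had a median of 0.93 and basement membrane genes one of -0.49.

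Col12a1, a fibril-associated collagen of loaded and wounded tissue, had 819, 328 and 1097 CPM after AFL and 164, 155, 85.4 and 81.6 CPM in BCC. The lowest AFL mouse was about 2 times the highest BCC mouse, and the gene rose 6.16-fold (2.62, SE 0.50, adjusted p = 0.00339). Col8a1, a short-chain collagen of vessel walls and of Descemet's membrane in the eye, had 42.9, 38.1 and 69.7 CPM after AFL and 3.88, 8.91, 9.64 and 4.39 CPM in BCC (2.91, SE 0.33, adjusted p = 7.36e-05). Neither gene overlapped between the groups, and both were called in all 19 other settings. In the same comparison 5 of 7 endothelial markers and 6 of 6 macrophage markers rose, and the part of these cells in the Col8a1 value was not tested. Col5a3 had 135, 283 and 182 CPM after AFL and 53.4, 44.6, 34.9 and 41.6 CPM in BCC (2.20, SE 0.41, adjusted p = 0.00277). Its call was lost in a fit of the induced mice alone with days since induction as covariate (1.70, adjusted p = 0.0595). That fit does not separate the covariate from leaving out the healthy mice. Days since induction were 80 to 126 in AFL and 130 to 144 in BCC mice.

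The main dermal chains after AFL were high in all 3 mice but were not called against BCC. Col3a1 had 9576, 8388 and 8910 CPM after AFL, all above the 6729 CPM of BCC mouse 4 and the 2065 to 2623 CPM of the other BCC mice (1.38, SE 0.51, adjusted p = 0.123). Col5a2 had 999, 711 and 1008 CPM, against 186, 633, 286 and 228 CPM (1.44, SE 0.45, adjusted p = 0.0645), and Col5a1 569, 676 and 636 CPM, against 239, 358, 144 and 283 CPM (1.29, SE 0.42, adjusted p = 0.0793). None of these 3 genes overlapped between the groups, as for 18.8% of all genes. Without BCC mouse 4, Col3a1 (1.93, adjusted p = 0.0336) and Col5a2 (1.96, adjusted p = 0.0133) passed and Col5a1 did not (1.5, adjusted p = 0.0754). Col1a1 had 3797, 5531 and 4442 CPM after AFL and overlapped BCC (0.43, SE 0.55, adjusted p = 0.736). The 95% interval of its log2 difference was -0.78 to 1.64.

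Col2a1, Col9a2 and Col9a3 fell after AFL, with 1 AFL mouse apart from the other 2. Col2a1 had 10.1, 2.17 and 1.60 CPM after AFL and 17.1 to 30.8 CPM in BCC (-2.37, SE 0.58, adjusted p = 0.0176). Col9a2 had 4.66, 1.56 and 1.60 CPM (-2.14, SE 0.51, adjusted p = 0.0148), and Col9a3 had 12.4, 5.61 and 5.31 CPM (-1.74, SE 0.39, adjusted p = 0.0103). Mouse 2 was thus the highest AFL mouse for all 3 genes, and all 3 calls were lost without AFL mouse 7 and without AFL mouse 11. They were also lost in fits of the induced mice alone with age or days since induction as covariate. Of 4 tested chondrocyte markers 2 fell as well. These were Sox9, at 59.3 ± 16.1 CPM after AFL (SD, n = 3; adjusted p = 0.0248), and Acan, at 1.33 ± 1.17 CPM (SD, n = 3; adjusted p = 0.0442). The median over the list was -1.5, and its summed CPM was 46.2 to 79.3 after AFL and 157 to 183 in BCC. None of 4 tested osteoblast markers was called. The part of such cells in the collagen values was not tested. Col10a1 differed from Col2a1, Col9a2 and Col9a3 in that it was not called, with 2.79, 0.335 and 1.37 CPM after AFL, which overlapped BCC (0.32, SE 0.76, adjusted p = 0.875). Col22a1 fell by 2.85 (SE 0.84, adjusted p = 0.0497) and lost its call in 11 of 19 settings.

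Col7a1 lay above the healthy range and overlapped BCC after AFL, at 254, 244 and 184 CPM, and was not called against BCC (-0.52, SE 0.32, adjusted p = 0.381). Against healthy skin it rose (1.54, SE 0.29, adjusted p = 0.00247). Col17a1 had 322, 792 and 506 CPM after AFL and was not called against BCC (-0.46, SE 0.37, adjusted p = 0.535). Col6a3 had 1243, 1203 and 964 CPM after AFL, and it was not called against BCC (0.78, SE 0.45, adjusted p = 0.35) but rose against healthy skin, where it had 109, 291, 360, 436 and 599 CPM (1.66, SE 0.42, adjusted p = 0.0197).

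Against healthy skin, 15 collagen genes rose after AFL and none fell, and 9.24% of all genes were called, 7.95% higher and 1.29% lower. The median log2 fold change was 0.83 over the collagen genes and 0.01 over all genes. All 8 fibrillar genes were above healthy skin without overlap, as 25.7% of all genes were in either direction, and 6 of them rose. In the same comparison 2 of 10 fibroblast markers (Pdgfra and Pdgfrb), 6 of 6 macrophage, 5 of 5 neutrophil and 2 of 7 endothelial markers rose, and the median over the fibroblast list was 0.08. Pdgfra was at 242 ± 106 CPM after AFL (n = 3) and 105 ± 35.3 CPM in healthy skin (SD, n = 5). Other markers of the fibroblast list had lower means after AFL, and its estimates ran from -1.49 to 1.2. Pi16 was at 188 ± 27.8 and 423 ± 187 CPM, and Clec3b at 48.2 ± 19.9 and 135 ± 52.9 CPM. The part of these cell types in the collagen values was not tested. Col5a2 rose by 2.35 (SE 0.43, adjusted p = 0.00166) and Col3a1 by 1.72 (SE 0.48, adjusted p = 0.0319), while Col1a1 (1.53, SE 0.52, adjusted p = 0.0803) and Col1a2 (1.51, SE 0.46, adjusted p = 0.0524) did not pass. Col12a1 rose 7.63-fold (2.93, SE 0.47, adjusted p = 0.000576) and Col8a1 rose 9.42-fold (3.24, SE 0.31, adjusted p = 1.23e-05). Col10a1 rose as well (5.69, SE 0.92, adjusted p = 0.000615). With a score of 19 hair shaft and sheath genes in the fit, 7 of the 43 genes were called, and that score was 4.73 to 9.71 in healthy and -0.90 to 3.88 in AFL mice. Col3a1, Col5a1, Col7a1 and Col6a3 were among the genes that lost their call in that fit.

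Vismodegib skin was compared with healthy skin to see where collagen levels stood after treatment. Here 7 collagen genes fell and none rose, with 11.6% of all genes called, 7.57% higher and 4.07% lower. The median was -0.70 over the collagen genes and 0.02 over all genes. The 7 genes were Col1a1 (-1.70, SE 0.51, adjusted p = 0.0423), Col5a1, Col5a3 (-1.28, SE 0.37, adjusted p = 0.0347), Col9a3, Col15a1 (-1.55, SE 0.43, adjusted p = 0.0311), Col4a6 and Col8a2 (-1.22, SE 0.35, adjusted p = 0.033). Groups did not overlap for 2 of the 43 collagen genes, against 16.1% of all genes. Each of the 7 lost its call when 1 or another mouse was left out, and the count lay between 0 and 10 over these fits. There were 0 calls without healthy mouse 13, 14 or 15, and 1 without healthy mouse 16, vismodegib mouse 1 or vismodegib mouse 9. Healthy mouse 10 was low for fibrillar genes, with 481 CPM of Col1a1 and 836 CPM of Col3a1, and lay within or near the vismodegib range.

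The treatments were also compared with each other. In AFL against vismodegib skin 20 collagen genes were higher and none lower, while 9.15% of all genes were called, 6.69% higher and 2.46% lower. The median was 1.46 over the collagen genes and -0.06 over all genes. All 8 fibrillar genes were higher after AFL, by log2 fold changes from 2.01 (Col27a1) to 3.45 (Col24a1), and all 8 were called in every setting tried. Their groups did not overlap, which held for 25 of 43 collagen genes and 22.2% of all genes. Col1a1 differed by 3.23 (SE 0.58, adjusted p = 0.00288), Col5a1 by 3.08 (SE 0.44, adjusted p = 0.000525) and Col3a1 by 2.36 (SE 0.52, adjusted p = 0.00966). Col8a1 differed by 3.39 (SE 0.34, adjusted p = 0.000145), Col12a1 by 2.94 (SE 0.51, adjusted p = 0.00219), Col10a1 by 5.01 (SE 0.97, adjusted p = 0.00463) and Col6a1 by 2.24 (SE 0.46, adjusted p = 0.00682). Of 10 basement membrane and junction genes Col7a1 alone was called (1.45, SE 0.31, adjusted p = 0.00871). Of 10 fibroblast markers Pdgfrb and Twist2 were higher in this comparison, with a list median of 0.34 and estimates from -0.53 to 1.25. Summed marker CPM was 2628 to 3446 in AFL mice, within the 1185 to 7052 of vismodegib mice.

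The genes that modify, fold, cut, crosslink or bind collagen were followed beside it, as 62 genes in 5 lists, of which 61 were tested. In BCC against healthy skin 3 of them rose (4.92%, against 2.82% of all genes called), the matrix protein periostin (Postn) and the collagenases Mmp13 and Mmp14. Mmp13 had 0.148, 0.350, 0.138, 0.550 and 0.318 CPM in healthy mice and 2.75, 12.1, 20.3 and 3.6 CPM in BCC mice (4.99, SE 0.71, adjusted p = 0.000845). The 27 genes of the processing list, not all of them enzymes, had no call in that comparison, at a median of 0.12. None of the 5 crosslinking enzymes was called. The collagen chaperone Serpinh1 did not pass (0.31, SE 0.39, adjusted p = 0.774). Mmp14, a membrane-bound collagenase (0.86, SE 0.22, adjusted p = 0.0403), and Postn (2.14, SE 0.47, adjusted p = 0.0175) lost their calls without BCC mouse 4.

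After AFL, 13 of the 61 genes rose against BCC and none fell, or 21.3% called, against 7.75% of all genes. Of the 5 lysyl oxidases, which crosslink collagen, 4 rose. Loxl3 had 27.4, 38.6 and 59.8 CPM after AFL and 7.73, 5.91, 3.42 and 5.42 CPM in BCC (2.90, SE 0.36, adjusted p = 0.000124), and Loxl2 had 328, 212 and 333 CPM against 96.0, 118, 78.0 and 93.2 CPM (1.59, SE 0.30, adjusted p = 0.00316). Both were separated without overlap and called in every setting tried, while Lox lost its call without AFL mouse 11 and Loxl1 in 10 of 19 settings. The prolyl hydroxylase subunit P4ha3 had 8.56, 9.73 and 16.6 CPM against 0.521, 0.764, 1.21 and 0.245 CPM (4.08, SE 0.76, adjusted p = 0.00278), and P4ha2 rose by 1.52 (SE 0.30, adjusted p = 0.00383). Of 10 degradation genes Mmp8, Mmp9, Mmp13 and the inhibitor Timp1 rose, and Mmp9 had 68.5, 82.0 and 185 CPM against 13.2 to 19 CPM (2.82, SE 0.44, adjusted p = 0.000641). Thbs2 (2.09, SE 0.37, adjusted p = 0.00188) and Lair1, a collagen receptor of leukocytes (3.57, SE 0.58, adjusted p = 0.000873), rose too. All 6 macrophage markers rose in this comparison, and their part in the Mmp9 and Lair1 values was not tested.

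After vismodegib, 11 of the 61 genes fell and 3 rose against BCC, or 23% called, against 17% of all genes. Of the 27 processing genes 8 fell and 1 (P4hb) rose, at a median of -0.59. Colgalt2, which adds galactose to collagen, had 0.786, 0.852, 0.690 and 1.12 CPM against 2.23 to 3.64 CPM in BCC (-1.76, SE 0.38, adjusted p = 0.00595), and Bmp1, the C-propeptide proteinase, had 89.2, 137, 70.3 and 114 CPM against 153 to 218 CPM (-0.91, SE 0.21, adjusted p = 0.00875). Neither gene overlapped BCC. The fibril-binding proteoglycan Fmod (-1.56, SE 0.44, adjusted p = 0.0251) and the collagen-binding protein Sparc (-1.25, SE 0.40, adjusted p = 0.0413) fell, as did Mmp14 (-1.20, SE 0.23, adjusted p = 0.00315). None of the 5 crosslinking enzymes was called, and Lox was at 0.06 (SE 0.53, adjusted p = 0.953). Timp1 rose (3.38, SE 0.73, adjusted p = 0.00655), with 61.7, 44.4, 405 and 132 CPM against 7.74 to 30.6 CPM, and Mmp8, a neutrophil collagenase, rose by 3.62 (SE 0.86, adjusted p = 0.0106), while all 5 neutrophil markers rose in the same comparison. Mouse 9 was the highest of its group for Timp1 and for the summed CPM of the neutrophil markers. The count of 14 calls was 7 without BCC mouse 4, 8 without BCC mouse 8 or vismodegib mouse 1, and 6 without vismodegib mouse 9. Of the 14 genes, 5 were called whichever mouse was left out, and 2 in every setting tried. The single genes named here are not marked for this.

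**Figure D5:**
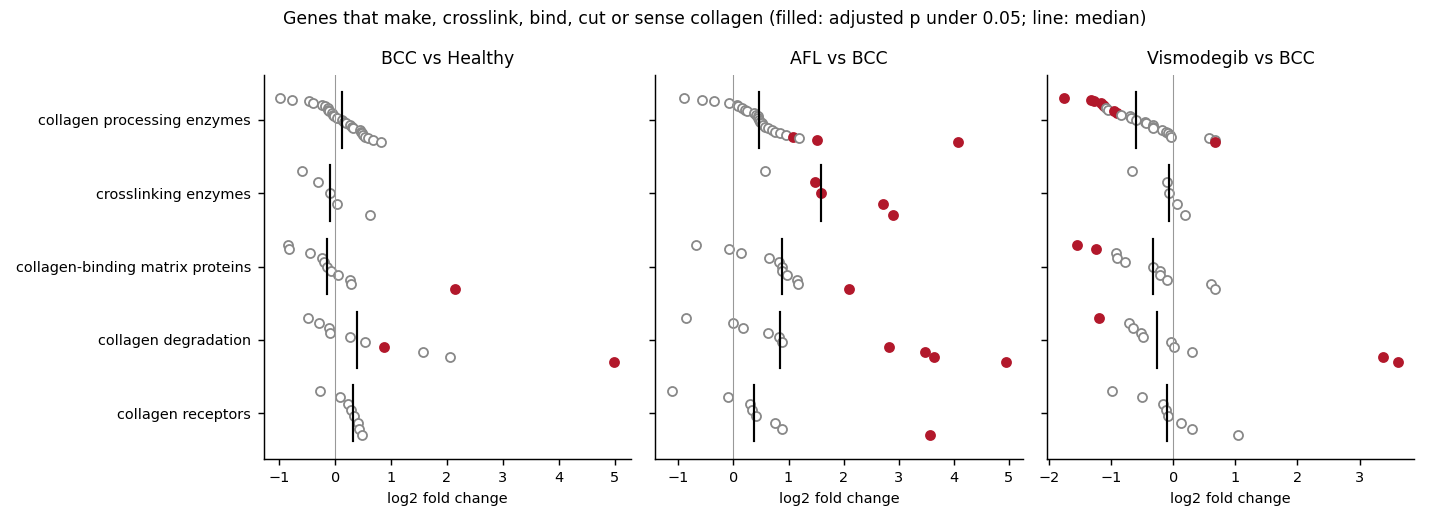
Each point is a gene of 1 of 5 lists, placed by its log2 fold change in BCC against healthy, AFL against BCC and vismodegib against BCC skin. Filled points have an adjusted p under 0.05 and lines mark list medians. The crosslinking list has a median of 1.59 in AFL against BCC and -0.07 in vismodegib against BCC.

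Against healthy skin AFL gave 23 higher and 1 lower call among these genes (39.3%, against 9.24% of all genes). Vismodegib gave 3 higher and 9 lower calls (19.7%, against 11.6% of all genes). Directly compared, AFL skin had 29 of the 61 genes higher than vismodegib skin and none lower (47.5%, against 9.15% of all genes), among them 15 of 27 processing genes and 4 of 5 crosslinking enzymes. Serpinh1 (1.68, SE 0.45, adjusted p = 0.0288), Sparc (2.12, SE 0.42, adjusted p = 0.00552) and Loxl2 (2.26, SE 0.31, adjusted p = 0.000371) were among the 29.

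How far partner chains varied together between mice of a group differed by collagen type. As a description over 16 mice with group means removed, log2 levels of Col6a1 correlated with those of Col6a2 at r = 0.97 and of Col6a3 at r = 0.97. The value was 0.93 for Col4a1 with Col4a2 and 0.92 for Col1a1 with Col1a2. It was lower for Col9a2 with Col9a3 (0.72) and for the type V chains Col5a1 and Col5a2 (0.60). Partner chains of types XI and VIII did not vary together, at 0.11 for Col11a1 with Col11a2 and -0.47 for Col8a1 with Col8a2. Genes of different proteins also reached high values, such as Col15a1 with Col6a2 at 0.96 and Col3a1 with Col5a2 at 0.92, and the points share library, scaling and tissue makeup. Col4a1 and Col4a2 lie head to head on chromosome 8, with starts 21 bases apart in GRCm38.p6, and Col4a5 and Col4a6 on chromosome X, with starts 1343 bases apart. Counts of Col4a1 per Col4a2 count had group means between 1.90 and 2.18, and those of Col1a1 per Col1a2 count 0.622 ± 0.187 after vismodegib (n = 4) and 0.907 ± 0.209 in BCC (SD, n = 4), with overlap.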

How the data were processed

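Skin RNA of 16 mice was sequenced as 19 poly-A libraries with a directional kit, per the labels' protocols. The values deposited by the authors are unnormalised expected counts of each gene from RSEM, made with Bowtie2 and RSEM against GRCm39 per the submitters' processing notes. Annotation, versions and strand setting were not given in the sources used here. Overlapping and antisense genes cannot therefore be separated with certainty. Expected counts (3.42% not whole) were rounded, and the 2 libraries of mice 11, 12 and 16 were summed. The libraries of mouse 16 carry different ages, so healthy mice were also counted with it as 2 mice. Whether mice shared a litter or batch is not stated, so p-values measure the spread between these mice.

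All groups entered 1 edgeR 4.0.16 fit in R 4.3.3 (filterByExpr, TMM, robust quasi-likelihood, group as the term, 12 residual degrees of freedom), tested on simulated data. Sharing 1 fit lets all groups inform the spread. The Benjamini-Hochberg adjustment ran over 15760 genes. SE is the log2 fold change divided by the root of F. Fold changes of genes with few counts depend on the prior count. Correlations used log2(CPM + 1). Coding lengths came from GENCODE M21 and promoters from RefSeq, both on GRCm38, and gave no expression values. Alternatives were DESeq2 1.42.0, other scalings and filters, all libraries as replicates, a replicate block, hair score, age or days as covariates, and leaving out each mouse. Fits with age or days as covariate held the induced mice alone, so they also leave out the healthy mice.

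Genes named were, per class and comparison, the called gene with the smallest p, the most abundant gene of each class, and fixed names (Col1a1, Col3a1, Col4a1, Col7a1, Col17a1 and Col6a3), with the 2 smallest p of each pathway list. Others were named after their values were seen. Members, classes, lists and tests were chosen with earlier results of these data known.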

Additional observations from a re-analysis of the deposited data

Results flagged for a closer look

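In groups of 4 or 5 mice, a value was marked when its gap to the next mouse took up more of the group's range than Dixon's 95% limit, which chance does in about 1 of 20 groups. Of 129 groups tested, 7 were marked. BCC mouse 4 was high for Col3a1 (6729 CPM, next 2623), Col6a3 (1143 CPM, next 560) and Col13a1 (7.79 CPM, next 3.52). BCC mouse 8 was high for Col6a5, a type VI chain (17.2 CPM, next 4.45). Vismodegib mouse 6 was high for the type IV chain Col4a5 (23.7 CPM, next 8.33), and vismodegib mouse 1 for Col22a1 (0.956 CPM, next 0.252). Healthy mouse 15 was high for Col9a2 (0.782 CPM, next 0.386).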

How the results depend on the processing

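No called value changed direction in any setting. When 1 mouse was left out, collagen calls ranged from 8 to 12 in BCC against healthy, 3 to 8 in AFL against BCC, 20 to 28 in vismodegib against BCC, 9 to 16 in AFL against healthy, 0 to 10 in vismodegib against healthy and 16 to 22 in AFL against vismodegib skin. Pathway calls ranged from 1 to 3, 9 to 13, 6 to 19, 15 to 24, 6 to 17 and 22 to 31 in the same order. AFL against BCC had 3 collagen calls without AFL mouse 7 or 11, and AFL against healthy had 9 without healthy mouse 13 or AFL mouse 2. Pathway calls were 1 without healthy mouse 13 or BCC mouse 4 in BCC against healthy, 15 without AFL mouse 11 in AFL against healthy, and in vismodegib against healthy 7 without healthy mouse 16 and 6 without vismodegib mouse 9. Called in every setting were 8 of 10, 2 of 7, 15 of 29, 6 of 15, 0 of 7 and 15 of 20 collagen genes. With DESeq2 there were 15 collagen calls in AFL against BCC, and 11 collagen and 19 pathway calls in vismodegib against healthy skin. With all libraries as replicates these were 15, 12 and 19, and AFL against BCC had 20 pathway calls. In fits of the induced mice alone with days since induction, AFL against BCC had 3 collagen calls and vismodegib against BCC 8 pathway calls. In such fits with age they had 3 and 19 collagen calls and 8 and 5 pathway calls. With induced mice alone and no covariate, added after seeing the data, vismodegib against BCC had 9 pathway calls. With the hair score AFL against healthy had 7 collagen and 14 pathway calls and vismodegib against healthy 2 collagen calls. The cause of these changes was not tested.

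Deviations of same-numbered mice correlated from -0.39 to 0.62 over 21 pairs, with a median of -0.17. Those of mice with other numbers ran from -0.715 to 0.739 over 74 pairs, with a median of -0.03. Same-numbered mice were thus not more alike than others by this measure. With the replicate block, BCC against healthy had 1 pathway call and vismodegib against healthy 4 collagen calls. Library size alone moved the median of all genes to -0.18 in AFL against BCC, -0.30 in vismodegib against BCC, -0.25 in vismodegib against healthy and 0.16 in AFL against vismodegib, and changed no direction. Of 1464 recomputed values of named genes, 152 lost their call and none was reversed. Depth limits Col9a1, Col10a1, Col19a1 and Col6a4, which had 50 to 361 counts in all.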
